A study of Branchiostoma lanceolatum with 24 samples.

Results

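A set of 48 transcriptome contigs held fewer reads in amphioxus embryos exposed to SU5402 than in control embryos at each of 6 times of development. They were chosen from 96094 contigs by their levels in CPM, the count of a contig divided by the total count of its library and scaled to a common total. In each of 6 pairs of groups, the highest SU5402 library was at most 0.8 times the lowest control library, and the control mean was at least 5 CPM. Because these levels chose the contigs, their fall with SU5402 is described here and not tested.

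Each library was made from a mix of whole embryos of the amphioxus Branchiostoma lanceolatum, a small marine chordate without a backbone. Controls were kept in filtered sea water with 0.1% DMSO, the usual solvent of SU5402, and the treated embryos in 50 µM SU5402. Early treatment started at 5 hours post fertilization (hpf) and was sampled at 8, 11 and 14 hpf, and late treatment started at 15.5 hpf and was sampled at 18.5, 21.5 and 24.5 hpf. The samples of either series thus had 3, 6 and 9 h of exposure. Each of the 12 groups had 2 libraries, and no label tells if the pair had separate parents or dishes. The p-values therefore speak only to how far 2 such libraries lie apart, a spread that may be technical.

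SU5402 inhibits the kinase domain of fibroblast growth factor (FGF) receptors, and also acts on related receptor kinases. FGF ligands bind these receptors at the cell surface, and the signal runs mainly through the Ras and ERK kinase cascade to transcription factors of the ETS family. In amphioxus, FGF signalling is known to be needed for the formation of the most anterior somites. The deposited table pairs no contig with a gene name, and the RefSeq gene table for the species, of assembly klBraLanc5.hap2, matched 0 of its identifiers. No gene or role can therefore be given to any of the 48 contigs, and several may be pieces of 1 transcript. In whole embryos, fewer cells of a type and less RNA per cell cannot be told apart.

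Libraries held from 10866511 to 39988564 reads, and the 8 libraries of 6 h exposure, at most 18924324, held fewer than any other. Per the labels' protocols these 8 were also amplified with 15 PCR cycles, against 12 in the others. Depth and cycle number were the same kind in the SU5402 and control libraries of a pair, so they go with exposure time and not with treatment. The lowest count of any of the 48 contigs in any library was 33 reads. The biological coefficient of variation, the spread between replicates beyond counting noise, was 27.2% in the early and 6.83% in the late series.

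Falling in all 6 pairs was uncommon among contigs that were expressed throughout. Of 10894 contigs with a control mean of at least 5 CPM at every time, 5303 met the limits in no pair, 2524 in 1 pair, 171 in 5 pairs and 48 in all 6, which is 0.441%. In a single pair the limits were met by 25.8%, 23.6% and 19.3% of the contigs at 5 CPM or more at 8, 11 and 14 hpf, and by 16.1%, 15.1% and 11.1% at 18.5, 21.5 and 24.5 hpf. All 3 early pairs were met by 529 contigs and all 3 late pairs by 681. With the same limits turned round, 79 contigs were higher with SU5402 in all 6 pairs.

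Together the 48 contigs took a larger share of reads in controls than in SU5402 embryos at each time. Their summed level in the 2 controls and the 2 SU5402 libraries was 6251, 5750, 3281 and 3265 CPM at 8 hpf. It was 7778, 7069, 3790 and 3647 CPM at 11 hpf, and 9796, 9485, 4938 and 5299 CPM at 14 hpf. The sum rose with age in both kinds of early embryo, and the SU5402 embryos at 14 hpf were still below the controls at 8 hpf. After late treatment it was 9435, 9535, 6160 and 6002 CPM at 18.5 hpf. It was 7536, 7530, 3354 and 3610 CPM at 21.5 hpf, and 6644, 6942, 3974 and 3694 CPM at 24.5 hpf. Here the sum fell with age in controls.

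The typical fall was near 2-fold. Over the 6 pairs the geometric mean of control over SU5402 ran from 1.45-fold to 4.28-fold among the 48 contigs, with a median of 1.99-fold. By pair, the median contig was lower by 1.84-fold, 2.14-fold and 1.98-fold at 8, 11 and 14 hpf and by 1.70-fold, 2.17-fold and 1.81-fold at 18.5, 21.5 and 24.5 hpf. On the log2 scale these medians were -0.88, -1.10, -0.99, -0.76, -1.11 and -0.85. The median over all 10894 expressed contigs was -0.26, -0.19, -0.09, -0.05, 0.01 and 0.06 in the same pairs, so part of the early fall was shared by the expressed contigs as a whole on this scale.

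The 6 h pairs, which are also those with fewer reads and more PCR cycles, held the strongest fall of most contigs. It lay at 11 hpf for 12 contigs and at 21.5 hpf for 18, against 1 and 2 contigs at 8 and 18.5 hpf and 7 and 8 at 14 and 24.5 hpf. The part of depth and PCR cycles in this was not tested. Contigs at least 2-fold lower numbered 17, 27 and 24 in the early pairs and 13, 29 and 20 in the late pairs. A single contig, ContigAmph7823, was at least 2-fold lower in all 6, and 4 contigs were so in none. All these counts come from the ratios that chose the contigs. The same counts are not given for the other expressed contigs. The lead of the 6 h pairs is therefore not read as a trait of the chosen set.

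**Figure D1:**
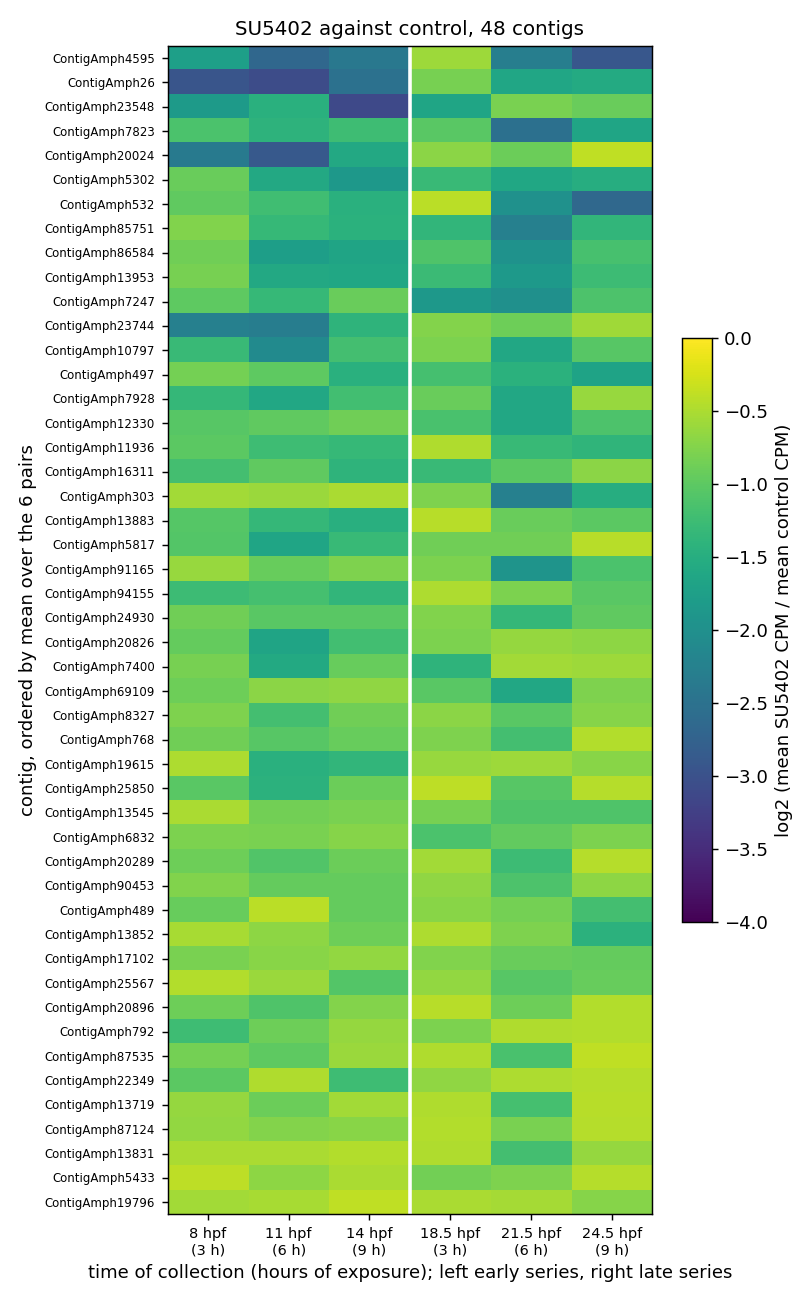
Log2 ratio of mean SU5402 to mean control CPM for each of the 48 contigs (rows, ordered by their mean over the 6 pairs) at each time of collection (columns, early series left of the white line). Darker cells are larger falls: ContigAmph4595 and ContigAmph26 lead, and the column at 21.5 hpf holds the strongest fall of 18 contigs.

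ContigAmph4595 and ContigAmph26 had the largest falls by geometric mean, 4.28-fold and 4.24-fold. ContigAmph4595 held 9.26 and 9.39 CPM in controls and 3.18 and 2.42 CPM in SU5402 embryos at 8 hpf. By 14 hpf the controls had reached 75.9 and 89.8 CPM, while the SU5402 embryos stood at 16.8 and 14.5 CPM. Both kinds of early embryo gained reads of this contig, and the ratio between them was 3.33-fold at 8 hpf, 6.33-fold at 11 hpf and 5.30-fold at 14 hpf.

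With late treatment ContigAmph4595 took another course. Controls held 19.2 and 19.2 CPM at 18.5 hpf, 28.3 and 24.7 CPM at 21.5 hpf and 52.8 and 42.0 CPM at 24.5 hpf. The SU5402 embryos went from 12.9 and 12.6 CPM to 6.16 and 4.69 CPM and then 7.12 and 5.52 CPM. The contig thus more than doubled in the late controls, with values that did not overlap between 18.5 and 24.5 hpf, and was lower at 24.5 than at 18.5 hpf in SU5402 embryos.

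ContigAmph26 was lowered most in the early series. Controls held 20.2 and 15.3 CPM at 8 hpf, 87.6 and 65.1 CPM at 11 hpf and 147 and 115 CPM at 14 hpf. The SU5402 embryos held 2.68 and 1.95, then 11.2 and 7.05, then 17.4 and 28.8 CPM. The early falls were 7.68-fold, 8.36-fold and 5.67-fold. After late treatment they were 1.78-fold, 3.09-fold and 2.93-fold, from control means of 198 ± 1.16, 195 ± 6.82 and 137 ± 16.1 CPM (SD, n = 2).

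ContigAmph20896 and ContigAmph303 held the most reads among the 48 in controls, with means over the 6 control groups of 1430 and 1007 CPM. CPM is not divided by contig length, which the files do not give, so these are shares of reads and not of transcripts. Over the 48 contigs this mean ran from 8.68 to 1430 CPM with a median of 56.9 CPM. It was above the median of the 10894 expressed contigs, 26.9 CPM, at 38 of the 48, or 79.2%. Whether the level of reads bears on meeting the limits was not tested.

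ContigAmph20896 held 169 and 151 CPM in controls and 83.2 and 90.2 CPM in SU5402 embryos at 8 hpf. It then climbed in both, to 1777 and 1776 CPM in controls and 1011 and 1108 CPM in SU5402 embryos at 14 hpf. Late controls went from 2494 and 2507 CPM at 18.5 hpf to 1546 and 1592 CPM at 24.5 hpf. Its fall with SU5402 stayed between 1.35-fold and 2.15-fold at all 6 times, while its control mean ranged from 160 to 2501 CPM.

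**Figure D2:**
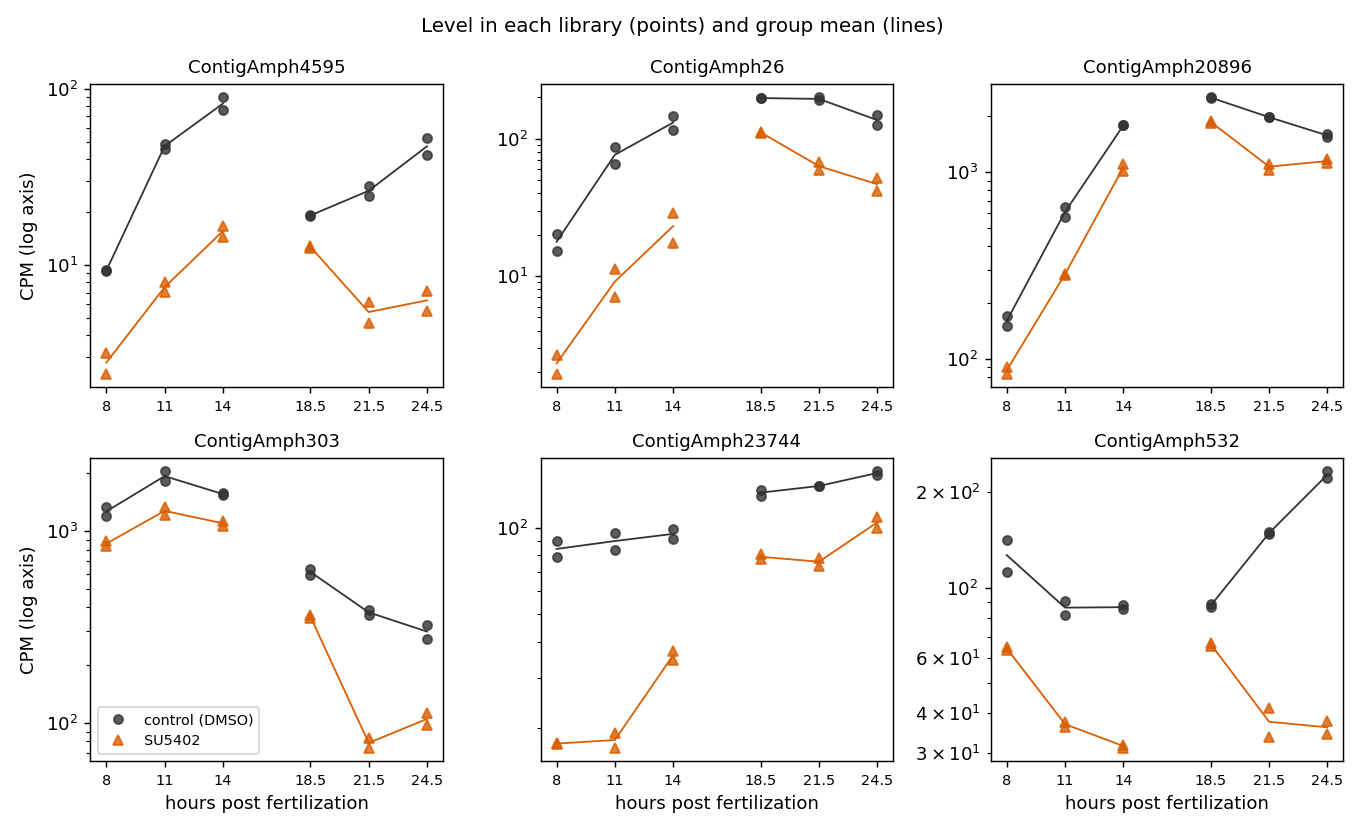
CPM in each library (points, log axis) and group means (lines) by hours post fertilization for 6 of the contigs, controls in black and SU5402 in orange. In every panel and at every time both SU5402 points lie below both control points, as the choice of contigs requires, while the shape of the control course differs between panels.

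The evenness of the fall varied between contigs. The range of the log2 ratio over the 6 pairs had a median of 0.93, and 29 of the 48 contigs kept it within 1, that is within 2-fold between their strongest and weakest pair. ContigAmph17102 was the most even, with a range of 0.29 and falls of 1.57-fold to 1.92-fold. ContigAmph19796 was next, with a range of 0.35 and falls of 1.30-fold to 1.66-fold.

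ContigAmph20024 and ContigAmph23548 were the least even, with ranges of 2.5 and 2.32. ContigAmph20024 held 33.7 and 29.4 CPM in controls and 4.39 and 4.17 CPM in SU5402 embryos at 11 hpf, a fall of 7.38-fold. At 24.5 hpf its fall was 1.31-fold. ContigAmph23548 held 34.1 and 25.8 CPM in controls and 3.41 and 3.48 CPM in SU5402 embryos at 14 hpf, an 8.70-fold fall. At 21.5 hpf the same contig had 25.0 and 26.1 CPM in controls and 14.5 and 14.8 CPM in SU5402 embryos.

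The change of the contigs between times in control embryos was not used to choose them and was tested. From 8 to 14 hpf, 28 contigs (58.3%) rose and 9 (18.8%) fell at an adjusted p under 0.05 in edgeR's quasi-likelihood test of the 12 early libraries. Of the 77193 contigs tested 20.6% rose and 20.3% fell, and of the 10894 contigs at 5 CPM or more in all controls 32.1% rose and 29.9% fell. The median log2 change was 1.17 for the 48 contigs and 0.03 for those 10894.

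From 18.5 to 24.5 hpf, 29 of the 48 contigs (60.4%) fell and 10 (20.8%) rose in the test of the 12 late libraries. Over 73087 contigs tested, 16% fell and 17.5% rose, and of the 10894 expressed contigs 41.5% fell and 16.1% rose. The median log2 change was -0.51 for the 48 and -0.16 for the expressed contigs. Both changes together, a rise to 14 hpf and a fall after 18.5 hpf, were found at 20 contigs (41.7%), beside 6.33% of the 62963 contigs tested in both series and 14.4% of the expressed ones. One fit of all 24 libraries gave 28 rising and 14 falling contigs from 8 to 14 hpf, where 21.2% and 23.9% of all contigs and 32.2% and 38.5% of the expressed ones did so. From 18.5 to 24.5 hpf it gave 5 rising and 23 falling, against 8.16% and 5.71% of all contigs and 9.15% and 20.6% of the expressed ones. In the tests by series, another 5 rose in both series, 5 fell in both and 3 fell and then rose, against 6.47%, 12.4% and 4.65% of the expressed contigs and 4.71%, 3.97% and 3.53% of all. The remaining contigs were 10 past the threshold in 1 series and 5 in neither, where 18.3% of the expressed and 41.3% of all contigs were in neither. The same controls decided that a contig lay above SU5402 at each time, but not how it changed between times.

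Among contigs past the threshold, the early rises were larger than the late falls. Replicates lay farther apart in the early series (27.2% against 6.83%), so smaller changes could pass the threshold in the late one. Among the 28 contigs that rose, the log2 change ran from 0.61 to 3.57 with a median of 2.02. Among the 29 that fell later it ran from -1.86 to -0.27 with a median of -0.91. ContigAmph20896 and ContigAmph19615 rose with the smallest p, by 3.31 (SE 0.12, adjusted p = 3.6e-08, edgeR) and 3.57 (SE 0.14, adjusted p = 6.3e-08). ContigAmph19615 went from 9.02 and 8.29 CPM to 117 and 115 CPM in controls, and stood at 44.0 and 45.7 CPM in SU5402 embryos at 14 hpf.

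ContigAmph22349 and ContigAmph6832 led the 9 contigs that fell from 8 to 14 hpf. ContigAmph22349 dropped from 1029 and 1005 CPM to 437 and 386 CPM in controls (log2 change -1.47, SE 0.098, adjusted p = 1.3e-06, edgeR). In SU5402 embryos it went from 479 and 535 CPM to 172 and 177 CPM. ContigAmph6832 went from 24.4 and 22.5 CPM to 9.04 and 10.2 CPM in controls (log2 change -1.45, SE 0.21, adjusted p = 0.00027). Both contigs were thus lower with SU5402 and also lower at 14 than at 8 hpf in controls.

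Among late controls ContigAmph532 and ContigAmph4595 rose with the smallest p. ContigAmph532 held 88.6 and 86.9 CPM in controls at 18.5 hpf, 148 and 149 CPM at 21.5 hpf and 233 and 222 CPM at 24.5 hpf (log2 change 1.28, SE 0.077, adjusted p = 1.9e-13, edgeR). In SU5402 embryos it went the other way, from 66.9 and 65.3 CPM to 41.6 and 33.7 CPM and then 34.4 and 37.9 CPM. The rise of ContigAmph4595, 1.21 on the log2 scale (SE 0.11), had an adjusted p of 6.4e-10 in edgeR.

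ContigAmph87535 and ContigAmph20289 fell with the smallest p in the late controls, and both had risen in the early ones. ContigAmph87535 had a log2 change of -1.86 (SE 0.075, adjusted p = 4.5e-17, edgeR) after a rise of 1.98 from 8 to 14 hpf. Its controls held 33.9 and 39.6 CPM at 8 hpf, 158 and 167 CPM at 14 hpf and 135 and 134 CPM at 18.5 hpf. ContigAmph20289 had one of -1.68 (SE 0.068, adjusted p = 5.2e-17) after a rise of 2.27. With SU5402 it held 33.4 and 39.9 CPM at 8 hpf, 199 and 193 CPM at 14 hpf and 225 and 202 CPM at 18.5 hpf. It then stood at 61.9 and 65.4 CPM at 21.5 hpf and 77.0 and 76.4 CPM at 24.5 hpf, below both values at 18.5 hpf.

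**Figure D3:**
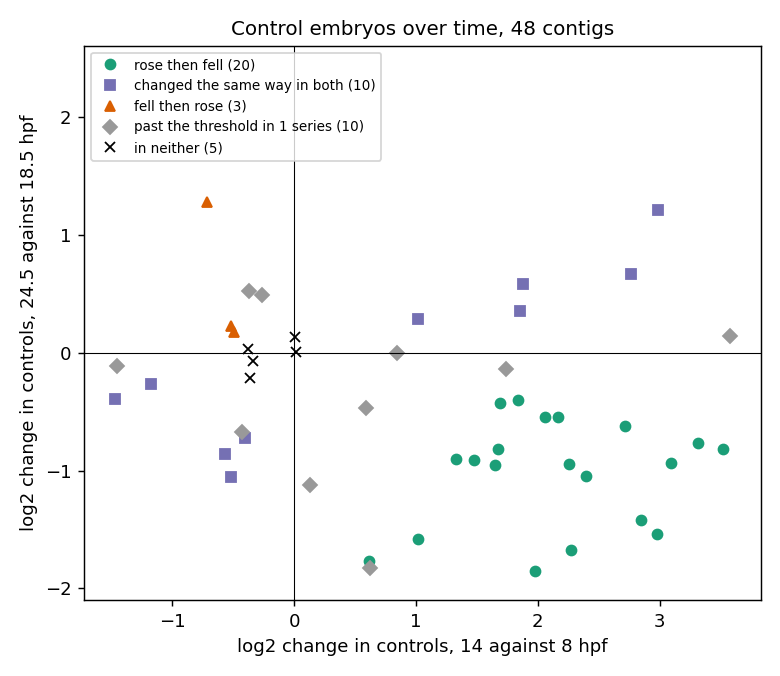
Log2 change in control embryos from 8 to 14 hpf (x axis) and from 18.5 to 24.5 hpf (y axis) for the 48 contigs, with symbols for the outcome of the tests at an adjusted p of 0.05. The lower right holds the 20 contigs that rose early and fell late, and 5 contigs passed the threshold in neither series.

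Treated embryos were set against the same courses. With levels scaled by trimmed mean of M-values (TMM) factors, both SU5402 libraries at 14 hpf lay above both at 8 hpf for 31 of the 48 contigs and below for 14. Among the 10894 expressed contigs 46.5% lay above and 37.7% below. By the same measure 29 of the 48 lay above and 15 below in early controls, against 38.1% and 44.9% of the expressed contigs. Of the late libraries, 33 of the 48 were lower at 24.5 than at 18.5 hpf with SU5402 and 12 higher, against 41.3% and 34.7% of the expressed contigs. In late controls 31 were lower and 12 higher, against 52.9% and 26.8%.

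Treated embryos at the end of exposure were also set against the controls at its start. At 14 hpf, both SU5402 libraries lay above both controls of 8 hpf for 20 of the 48 contigs and below them for 20. Of the expressed contigs 31.9% lay above and 50.5% below. At 24.5 hpf, SU5402 libraries lay below the controls of 18.5 hpf for 46 of the 48 contigs and above for 0, against 50.4% and 30.1% of the expressed contigs. The choice of contigs puts SU5402 at 24.5 hpf at or under 0.8 of its own control, and 34 of the 48 control changes from 18.5 hpf were below 0, so the late count is close to set by the choice. It is not compared with the early count, on which the choice also bears. There SU5402 at 14 hpf had to lie at or under 0.8 of its own control. The expressed contigs had no such limit, so neither count is read against theirs. Scaled by column totals, the early split was 25 above and 20 below, and that of the expressed contigs turned to 46.5% above and 36.2% below.

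The size of the fall was set side by side between the series. The effect of SU5402, as a log2 ratio to control, was compared between late and early treatment at matched exposure in edgeR's fit of all 24 libraries. These differences are made of the same ratios that chose the contigs, each of which had to be at most 0.8, so they are not independent of the choice. They are given as a description with their SE and no p, and the counts of contigs past an adjusted p of 0.05 are not read against those of other contigs.

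After 3 h, 8 contigs were past this threshold with the larger fall in the early series and 0 in the late. At an unadjusted p under 0.05 edgeR's counts were 13 and 3, and the Wald test of DESeq2 gave 7 and 1 at the adjusted threshold. After 6 h the counts were 7 and 4, and after 9 h 8 and 2. Without the limit on the ratios, 6.35% and 3.52% of all 87512 contigs tested were past it after 3 h, 6.1% and 4.09% after 6 h, then 5.54% and 5.82% after 9 h. Of the 10894 expressed contigs it was 23.3% and 4.25%, 23.3% and 4.95%, and 16.4% and 8.78%. At 1 or more times 18 of the 48 were past it, beside 22.3% of all contigs and 51.3% of the expressed ones.

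Scaling moved these counts. With TMM factors from contigs of at least 10 CPM the larger early and late falls numbered 4 and 5 after 3 h, 6 and 12 after 6 h, then 5 and 5 after 9 h. All contigs shifted the same way, to 3.55% and 5.85%, 2.61% and 6.32%, and 3.42% and 7.69%, and the expressed ones to 11.8% and 10.6%, 9% and 11.2%, and 9.19% and 14.4%. The median difference of the 48 went from 0.17, 0.02 and 0.19 to -0.09, -0.28 and 0.02. Single libraries mattered as well. Without Ctrl early 3 h replicate 1 the 8 contigs at 3 h became 4. Without either late 9 h control library or either late 9 h SU5402 library, the 8 at 9 h became 4 or 5.

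ContigAmph23744 and ContigAmph20024 were the 2 contigs past the threshold with a larger early fall at all 3 exposure times, as were 0.663% of all contigs and 3.97% of the expressed ones. ContigAmph23744 held 89.6 and 79.1 CPM in controls and 17.6 and 17.7 CPM in SU5402 embryos at 8 hpf, and 135 and 129 against 77.5 and 80.8 CPM at 18.5 hpf. The late effect minus the early one was 1.58 on the log2 scale after 3 h, 1.55 after 6 h and 0.85 after 9 h, each with an SE of 0.15. For ContigAmph20024 the differences were 1.71, 2.09 and 1.22. The change of either contig in controls did not pass the threshold in either series.

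ContigAmph303 and ContigAmph7823 had the larger fall with late treatment at 6 h. ContigAmph303 held 2043 and 1822 CPM in controls and 1337 and 1210 CPM in SU5402 embryos at 11 hpf. At 21.5 hpf it held 388 and 365 CPM in controls and 74.3 and 82.9 CPM in SU5402 embryos. The ratio was thus 1.52-fold at 11 hpf and 4.79-fold at 21.5 hpf, a difference of -1.54 on the log2 scale (SE 0.16). ContigAmph7823 stood at 1680 and 1693 against 628 and 631 CPM at 11 hpf and at 406 and 387 against 71.2 and 66.3 CPM at 21.5 hpf (difference -0.99, SE 0.14).

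At 9 h, the smallest p among larger early falls belonged to ContigAmph23548 (difference 2.23, SE 0.26) and ContigAmph22349 (0.82, SE 0.12). By size ContigAmph20024, ContigAmph5817 and ContigAmph23744, also past the threshold, stood above the latter. The 2 contigs with a larger late fall were ContigAmph532 (-1.17, SE 0.18) and ContigAmph303 (-0.99, SE 0.16). ContigAmph532 was the 1 contig with opposite differences, since at 3 h its fall was larger with early treatment (0.64, SE 0.18).

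**Figure D4:**
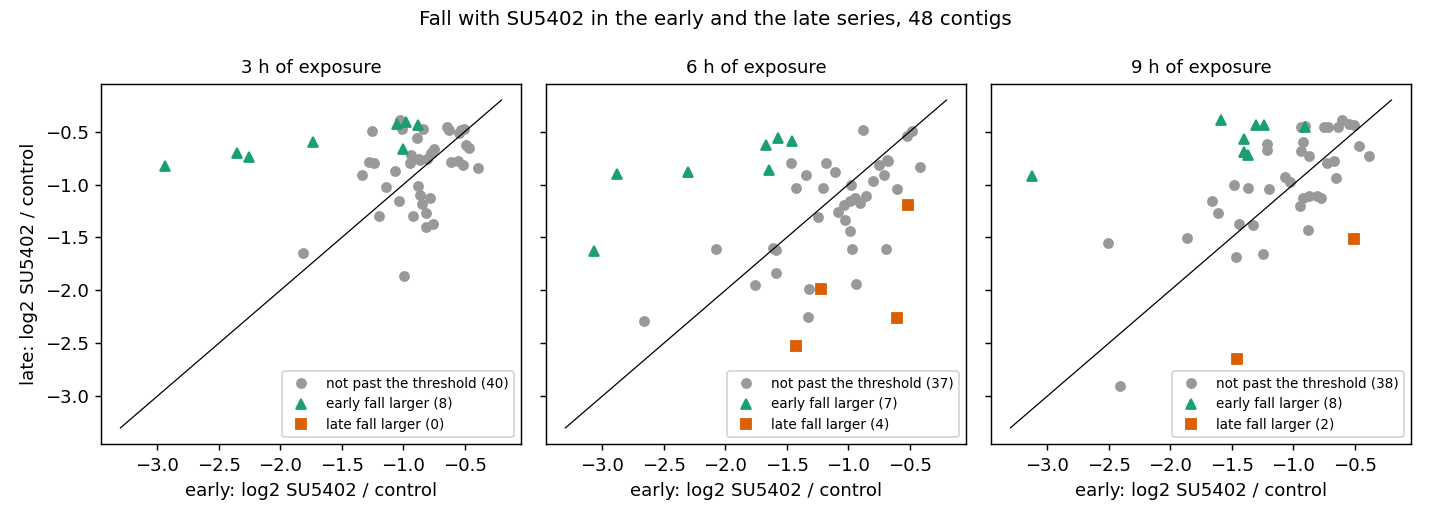
Log2 ratio of mean SU5402 to mean control CPM in the early (x axis) and the late series (y axis) for the 48 contigs at 3, 6 and 9 h of exposure, with the line of equal falls. Triangles mark contigs with the larger early fall (8, 7 and 8) and squares those with the larger late fall (0, 4 and 2) at an adjusted p of 0.05.

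Change of the fall with exposure within a series is described in the same way, since it too is made of the ratios that chose the contigs. Between 3 and 9 h of late treatment, 12 contigs were past an adjusted p of 0.05 with a deeper fall and 7 with a lesser one (edgeR, 12 late libraries). Without the limit on the ratios, 8.66% and 6.96% of all contigs tested were past it in these directions, and 12.1% and 19.9% of the expressed contigs. In the fit of all 24 libraries edgeR gave 6 and 0, where 11 and 4 had an unadjusted p under 0.05, and the DESeq2 Wald test by series gave 12 and 5. In that fit 2.49% and 1.01% of all contigs and 4.32% and 4.91% of the expressed ones were past the threshold. Without SU5402 late 3 h replicate 2 the 7 became 4, and without SU5402 late 9 h replicate 1 they became 3.

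By size, the deepening was largest at ContigAmph4595 and ContigAmph532, which also led the rise in late controls. A rise of the late controls is itself part of this change of ratio, so the 1 ranking is no separate evidence beside the other. The ratio of ContigAmph4595 went from a 1.51-fold to a 7.5-fold fall, a change of -2.35 on the log2 scale (SE 0.17). For ContigAmph532 the fall went from 1.33-fold to 6.29-fold, a change of -2.28 (SE 0.11). Among lesser falls the smallest p belonged to ContigAmph23548, from 3.13-fold to 1.89-fold (0.70, SE 0.13), and ContigAmph16311, from 2.46-fold to 1.62-fold (0.57, SE 0.11). By size ContigAmph7400 came first, with a change of 0.77.

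For early treatment 3 of the 48 contigs were past the threshold between 3 and 9 h (edgeR, 12 early libraries). The fall of ContigAmph23744 was 4.77-fold and then 2.65-fold (0.82, SE 0.18). ContigAmph19615 went from 1.40-fold to 2.58-fold (-0.91, SE 0.18), and ContigAmph13953 from 1.76-fold to 3.05-fold (-0.83, SE 0.18). Without the limit on the ratios, 3.76% of all contigs tested were past the threshold with a lesser and 1.66% with a deeper fall. Of the expressed ones it was 12.2% and 3.14%. None of the 3 calls held without SU5402 early 3 h replicate 1, without either early 9 h control library or without either early 9 h SU5402 library. The call of ContigAmph23744 was also lost without Ctrl early 3 h replicate 1 or SU5402 early 3 h replicate 2, and the other 2 calls without Ctrl early 3 h replicate 2.

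Some of the 48 contigs followed each other closely over the 24 libraries. Among 1128 pairs of contigs, Pearson's r of log2 CPM had a median of 0.44 and was at least 0.98 for 8 pairs. No such count was made among other expressed contigs, so it is not read as a trait of the 48. The closest pairs were ContigAmph13953 with ContigAmph86584 (r = 0.995) and ContigAmph23744 with ContigAmph20024 (r = 0.994), named after their values were seen. ContigAmph86584 held 94.7 and 79.6 CPM in controls and 26.9 and 24.6 CPM in SU5402 embryos at 11 hpf, where ContigAmph13953 held 185 and 169 against 59.1 and 59.1 CPM. All pairs share the libraries, the treatment and the choice by lower levels with SU5402. Without sequences, close pairs cannot be told from pieces of 1 transcript, so the 48 contigs may not be 48 independent genes.

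The limits that define the set cut through a continuous range. The largest ratio of the highest SU5402 to the lowest control library was above 0.75 at 25 of the 48 contigs, and 67 further expressed contigs lay above 0.8 and at most at 0.85. Just inside were ContigAmph87124 at 0.80 and ContigAmph20024 at 0.796, and just outside ContigAmph15765 and ContigAmph15489, both at 0.803. At the limit of 5 CPM, ContigAmph91165 and ContigAmph25567 were inside with a lowest control mean of 5.42 and 5.43 CPM. ContigAmph87077 at 4.10 and ContigAmph86230 at 4.03 CPM were outside, with 46 contigs in all that met the ratios and failed this level.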

How the data were processed

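The deposited table holds raw read counts of 96094 contigs in 24 libraries, as the authors counted them; per the submitters' processing notes the aligner was BWA 0.6.1. For the assembly, the counting rule and read filters, the sources used here give nothing. Each column was matched to its sample by title. The contigs, tests and naming rule were chosen with earlier results of these data known.

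CPM used column totals. edgeR 4.0.16 (R 4.3.3) tested contrasts two-sided with glmQLFTest, TMM factors, filterByExpr and 1 coefficient per group. Contrasts within a series used its 12 libraries (77193 early and 73087 late contigs, 6 residual degrees of freedom), since replicate spread differed. Contrasts between series used all 24 (87512 contigs, 12 degrees of freedom). p-values were Benjamini-Hochberg adjusted over all contigs of a contrast at 0.05. All 48 contigs passed the filter. The SE is the log2 value divided by the square root of F. No 2 replicates matched within counting error (chi-square per degree of freedom of at least 1.32).

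On simulated counts, the test of early controls found 0%, 2.99% and 78.8% of contigs set to change 1.5-fold, 2-fold or 4-fold, over 72936 contigs, the late one 82.1%, 98.5% and 100% over 70561, and the difference between series at 9 h 0%, 0% and 53% over 83467. False calls were 1.82%, 4.59% and 2.78%. Every simulated contig of a series had the same spread, whereas the fits of the data let spread differ between contigs. These shares therefore need not hold for the tests above.

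Named contigs are those with the largest falls, the highest control CPM, the smallest and largest range of the ratio, the smallest p in each direction of each contrast, and those nearest the limits. Alternatives were DESeq2 1.42.0, limma 3.58.1, other scalings and filters, single libraries left out and a replicate block.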

Additional observations from a re-analysis of the deposited data

Results flagged for a closer look

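Differences between 2 effects of SU5402 were past an adjusted p of 0.05 at part of the 48 contigs. They rest on the ratios that chose the contigs, so the counts are a description. Between late and early treatment, above 0 meaning a larger early fall, 8 contigs lay above and 0 below at 3 h, 7 above and 4 below at 6 h, and 8 above and 2 below at 9 h. At 3 h the contigs named were ContigAmph23744 (1.58 on the log2 scale) and ContigAmph20024 (1.71). At 6 h they were ContigAmph23744 (1.55), ContigAmph20024 (2.09), ContigAmph303 (-1.54) and ContigAmph7823 (-0.99). At 9 h they were ContigAmph23548 (2.23), ContigAmph22349 (0.82), ContigAmph532 (-1.17) and ContigAmph303 (-0.99).

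Between 9 h and 3 h of exposure, above 0 meaning a fall that lessened, 1 contig lay above and 2 below in the early series and 7 above and 12 below in the late series. In the early series these were ContigAmph23744 (0.82), ContigAmph19615 (-0.91) and ContigAmph13953 (-0.83), all lost when single libraries were left out. In the late series the named contigs were ContigAmph23548 (0.70), ContigAmph16311 (0.57), ContigAmph532 (-2.28) and ContigAmph4595 (-2.35).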

How the results depend on the processing

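The number of contigs meeting the limits in all 6 pairs depended on the limits and the scale: 93 with TMM factors, which include the 48, 81 with DESeq2 size factors, 26 with TMM factors from abundant contigs, 204 at a ratio of 0.9, 9 at 0.67, 0 at 0.5, 77 at 1 CPM, and 48 to 63 without 1 library. Of the 48 contigs, the DESeq2 scale kept 46. Only 25 of them still met the limits when abundant contigs alone set the TMM factors. The contigs that rose in early controls (27 to 28 without 1 library) or fell in late controls (28 to 29) kept their counts within 1.5 times under every alternative. Those that fell early were 6 to 9 and those that rose late 7 to 10 without 1 library. One fit of all 24 libraries gave 14 falling early and 5 rising late, 2 lessened and 5 deepened falls in the early series, and 0 and 6 in the late series.

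Between 9 and 3 h of early treatment, lessened falls were 0 with TMM factors from abundant contigs, and deepened ones 4 with column totals, 9 with those TMM factors, and 5 with a mean of at least 1 CPM or the DESeq2 Wald test. Without 1 library these were 0 to 1 and 0 to 3, and in the late series 3 to 8 and 11 to 15.

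Between series at 3 h, larger early falls were 4 with DESeq2 size factors, TMM factors from abundant contigs or a mean of at least 1 CPM, and 4 to 8 without 1 library (5 without Ctrl late 3 h replicate 1 or SU5402 late 3 h replicate 1). Larger late falls were 1 with DESeq2 size factors, column totals, a mean of at least 1 CPM or the Wald test, 5 with abundant TMM factors, and 0 to 1 without 1 library (1 without SU5402 early 9 h replicate 1). At 6 h, larger late falls were 8, 7, 12, 10 and 8 with DESeq2 size factors, column totals, abundant TMM factors, a mean of at least 1 CPM and the Wald test. Without 1 library they were 2 to 6 and larger early falls 6 to 9. The low value of 2 came without Ctrl early 6 h replicate 2, SU5402 early 6 h replicate 1, SU5402 late 6 h replicate 2 or either Ctrl late 6 h library. At 9 h, larger early falls were 5 with abundant TMM factors or a mean of at least 1 CPM and 4 to 8 without 1 library, and larger late falls 5, 6 and 2 to 4, with 4 without SU5402 late 9 h replicate 1.

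With limma-voom and a variance weight per stage, 12 contigs fell more early and 3 more late at 9 h. The differences between replicates 1 and 2 were shared by the early groups, with correlations across 17607 contigs of 0.592 to 0.843, except that SU5402 early 9 h went the other way, at -0.792 to -0.622. In the late series they were -0.288 to 0.111. The numbers were therefore not taken as pairing the libraries. With the replicate block, 2 falls lessened and 4 deepened in the early series. With the block and the SU5402 9 h numbers crossed, an alternative added after seeing the data, 14 contigs fell in early controls, 2 falls lessened and 11 deepened, and larger early and late falls were 15 and 4, 11 and 8, and 16 and 4 at 3, 6 and 9 h. Over all contigs these last shares rose as well, to 10.9% and 6.82%, 9.85% and 6.11%, and 11% and 9.82%, and over the expressed ones to 36% and 9.43%, 36.1% and 8.65%, and 29.6% and 14.8%.

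Of the values for named contigs under an alternative, 623 kept their direction and side of the threshold, 22 fell short of it and 0 changed sign. These contigs were named for the smallest p in each direction of each contrast in the same libraries. Their staying past the threshold thus owes much to how they were picked, and does not speak for the other calls. Early replicates lay farther apart than late ones, and on simulated counts the early and between-series tests found few 2-fold changes, although early control changes down to -0.40 and differences between series down to 0.41 on the log2 scale were called here. Contigs not past the threshold are not shown to have equal effects. What moved the counts was not tested.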
